A study of Macaca mulatta with 24 samples.

Results

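The proteasome is the large protease that degrades most ubiquitin-tagged proteins in a cell, and its subunits are encoded by genes whose symbols begin with PSM. A barrel-shaped 20S core holds the proteolytic sites on its beta rings between outer rings of alpha subunits, and a 19S cap recognises ubiquitin, unfolds the substrate with a ring of ATPases and feeds it into the barrel. Interferon signalling can replace the standard catalytic subunits PSMB5, PSMB6 and PSMB7 by PSMB8, PSMB9 and PSMB10, in that order, to form the immunoproteasome, and the PA28 ring of PSME1 and PSME2 caps the core without ATP. In brain, neurons use the proteasome for synaptic protein turnover, and the immunoproteasome genes are best known from microglia and other immune cells.

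The genes described here were all rows of the expression table whose symbol began with PSM, a letter from A to G and a digit. The rule found 48 of the 17208 symbols. Levels are in TPM, a read density scaled for gene length and library total, and 46 of the 48 averaged 1 TPM or more over the 24 animals and were tested, among 13637 genes that did so. By role they were 7 alpha and 7 beta subunits of the 20S core, 3 immunoproteasome beta subunits, 6 ATPases and 11 other subunits of the 19S cap, 3 chaperones of 19S assembly, 3 chaperones of 20S assembly and 5 activators or inhibitors. The rule also took in PSMC3IP, a recombination cofactor that is not a proteasome subunit. It is left out of the class scores below but is counted among the 46 tested members. PSMA8, a testis alpha subunit, and PSMB11, a thymus beta subunit, averaged 0.022 and 0.042 TPM and were not tested, and PSMG2 was not analysed here.

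RNA-Seq was run on the dissected core of the nucleus accumbens from 24 unrelated adult male rhesus macaques, 8 in each of 3 groups. Controls received water from both spouts and a calorie-matched maltose dextrin solution, while drinkers had daily open access to 4% ethanol and water for about a year after an induction phase and were killed without imposed abstinence. The LD* group held the low and binge drinkers, with mean intakes of 0.47 to 2.07 g/kg per day, and the HD* group held 4 animals labelled HD (heavy) and 4 labelled VHD (very heavy), with 2.74 to 3.78 g/kg. HD and VHD intakes met at 3.09 g/kg. Controls came from cohorts 5, 7a and 7b, LD* animals from cohorts 4, 7a and 7b, and HD* animals from cohorts 5 and 7a, so only cohort 7a held all 3 groups. HD and VHD were balanced, with 2 animals of each in cohorts 5 and 7a.

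Each column summed to 999998 to 1000000 TPM, so library depth was not recoverable from the table. All 10 striatal projection neuron markers, such as DRD1, DRD2 and PPP1R1B (the main output neurons of this region), were above 1 TPM on average. Control 6 stood apart, with 739 TPM for the sum of these markers against 2565 TPM or more in the other 23 animals, and with the highest sum of oligodendrocyte markers, 10166 TPM against 6843 TPM or less. In bulk tissue, fewer cells of a type and less RNA per cell cannot be told apart.

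The 20S beta genes were the most abundant members, with a median of 331 TPM over the 7 genes. PSMB4, a structural beta subunit needed for ring assembly, had the highest level of all members, 513 TPM ± 70.7 (SD, n = 24 animals). The catalytic genes followed, with 380 TPM (± 46.4) for PSMB7, which has the trypsin-like site, 358 TPM (± 24.9) for PSMB6, the caspase-like site, and 328 TPM (± 23.5) for PSMB5, the chymotrypsin-like site. PSMB5 did not differ beyond its SD from PSMB1 at 331 TPM (± 24.2), while the means of PSMB6 and PSMB1 lay slightly farther apart than either SD. PSMB2 was the low exception at 46.4 TPM (± 3.83). The alpha genes ran from 47.0 TPM for PSMA5 to 258 TPM for PSMA7, and the median of the class was 123 TPM.

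In the 19S cap the ATPase genes ran from 81.8 TPM for PSMC2 to 298 TPM for PSMC5. The other cap genes ran from 36.7 TPM for PSMD11, which helps join cap and core, to 281 TPM for PSMD8. The ubiquitin receptor PSMD4 stood at 271 TPM (± 24.6) and the deubiquitinase PSMD14 at 128 TPM (± 14.5). Assembly chaperones ran from 19.5 TPM for PSMD5 to 93.1 TPM for PSMG1. Genes that build the particle thus differed among themselves in mRNA level by more than their spread over animals.

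The 3 immunoproteasome genes were not alike. PSMB8 and PSMB9 had the lowest means of the 46 tested genes, 8.34 TPM (± 3.26) and 12.3 TPM (± 5.08), while PSMB10 ranked 17th at 135 TPM (± 41.7). As a share of each inducible gene plus its standard counterpart, PSMB8 made up 2.51% (± 1.05, SD, n = 24) against PSMB5, PSMB9 3.29% (± 1.18) against PSMB6 and PSMB10 25.7% (± 3.95) against PSMB7. These are shares of TPM, and the deposited values carry no measure of protein. PSME1 stood at 87.2 TPM (± 26.2) and PSME2 at 37.7 TPM (± 13.1), above the activator PSME4 at 12.4 TPM (± 3.16), which was level with PSMB9.

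**Figure D1:**
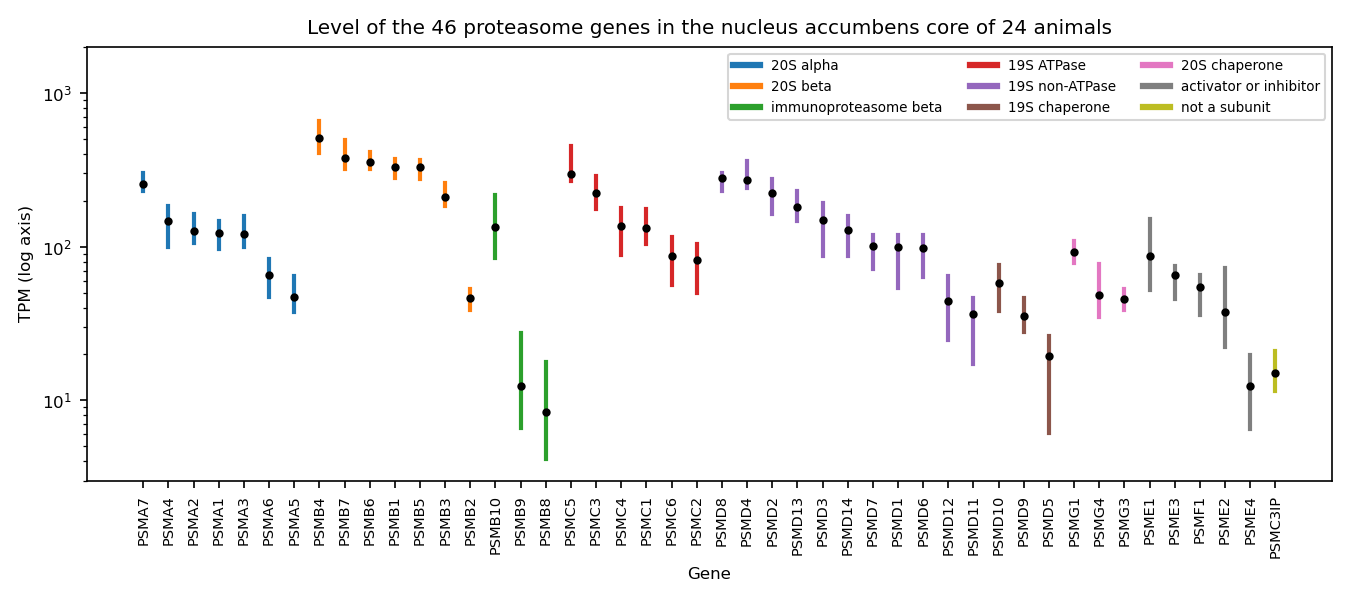
TPM on a log axis for the 46 tested genes, ordered by class and level. Bars run from the lowest to the highest of the 24 animals and dots are means, so the short bars of the 20S beta genes and the long bars of PSMB8, PSMB9, PSME1 and PSME2 show how much each gene varied between animals.

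Proteasome genes varied less between animals than most genes did. The coefficient of variation (SD over mean) over the 24 animals had a median of 13.5% in the 46 genes, against 23.6% over all 13637 genes tested and 21.0% over the 9197 genes with at least 10 TPM. Within the complex the 20S beta class was the steadiest, with a median of 8.26%, and the immunoproteasome class varied most, with 39.2%. The 5 highest coefficients belonged to PSMB9 (41.2%), PSMB8 (39.2%), PSME2 (34.8%), PSMB10 (30.9%) and PSME1 (30.0%). Depth and RNA quality per animal were not among the values used, so their part in the spread was not tested.

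The first question was whether proteasome genes differed between HD* animals and controls. None of the 46 genes passed the threshold of an adjusted p of 0.05 in this comparison (limma, adjusted by Benjamini-Hochberg over all 13637 genes; smallest adjusted p among the members 0.706), where 0% of all genes did. The authors, who modelled read counts, did report genes that differed between HD* animals and controls, and fewer between HD* and LD* animals. The absence of calls here holds for limma on log2(TPM + 1) and does not show that the groups were alike. Why the fits differed was not tested. At an unadjusted p under 0.05, 0 members were higher against 0.396% of all genes, and 2 were lower against 5.29%. Log2 differences were above 0 for 19 of 46 members, against 22.2% of all genes, and the members' median was -0.03 against -0.12 for all genes. The groups overlapped for every one of the 46 members, and 0% of all genes had groups that did not. After TMM rescaling (trimmed M-values, a correction for a shift of most genes), which moved the median of all genes by 0.12, 7 members were higher at an unadjusted p under 0.05 (2.27% of all genes) and 0 lower (1.51%), and 38 of 46 differences were above 0 (50.2%).

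The 20S beta genes differed little between these groups. All 7 differences were above 0, from 0.0041 to 0.079 on the log2 scale, but PSMB5 was at -0.0014 without Control 8. PSMB5 had a lowest, median and highest level of 278, 337 and 356 TPM in controls and of 295, 337 and 365 TPM in HD* animals, and the log2 difference was 0.03 (SE 0.07). PSMB6 (0.04, SE 0.07) and PSMB7 (0.08, SE 0.10) gave the same picture of differences no larger than their errors.

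The inducible genes overlapped widely between HD* animals and controls. PSMB8 ran over 6.12, 10.0 and 13.5 TPM in controls (lowest, median, highest) and 4.14, 7.61 and 17.7 TPM in HD* animals, so both the lowest and the highest value of the 16 animals were in HD* (log2 difference -0.28, SE 0.21, unadjusted p = 0.198, limma). PSMB9 differed by -0.10 (SE 0.23) and PSMB10 by 0.21 (SE 0.20). PSME1 ran over 53.1, 90.8 and 151 TPM in controls and 52.0, 83.9 and 135 TPM in HD* animals, a difference of -0.04 (SE 0.20), and PSME2 differed by -0.08 (SE 0.22). Both PA28 signs turned without Control 6, which held the highest PSME1 level of all 24 animals, and the differences were then 0.07 and 0.02. They turned as well without HD* 5 (0.06 and 0.01), and PSME1 alone turned without HD* 2 (0.0025) or Control 8 (0.0085). With cohort in the model, too, PSME1 and PSME2 were at 0.11 and 0.06.

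The 2 genes below an unadjusted p of 0.05 were PSME4, the nuclear activator known as PA200, and PSMC3IP. PSME4 ran over 10.1, 13.5 and 19.8 TPM in controls and 6.55, 11.2 and 15.4 TPM in HD* animals (log2 difference -0.34, SE 0.16, unadjusted p = 0.0425, adjusted p = 0.706, limma). The 2 ranges shared most of their length. The direction was the same inside cohort 5 (-0.38, 4 against 3 animals) and cohort 7a (-0.46, 4 against 2). PSMC3IP differed by -0.22 (SE 0.10, unadjusted p = 0.0437, limma). The count of 2 was 1 with cohort in the model or in cohorts 5 and 7a alone, and 0 with the oligodendrocyte score or with the 2 groups fitted alone. Leaving out 1 animal it ran from 0 (without Control 1 or 3 or HD* 1, 5 or 6) to 4 (without HD* 4). Shares of all genes were not set beside these other counts, so the changes cannot be read as particular to the members. The other members with small p were PSMG4, a chaperone of 20S assembly (0.25, SE 0.14), PSMG3, its partner (0.12, SE 0.07), the cap subunit PSMD12 (-0.25, SE 0.16) and PSMA7 (0.11, SE 0.07). For PSMG4 the difference was -0.01 in cohort 5 and 0.43 in cohort 7a. In the same comparison 10 of 10 striatal projection neuron markers were above 0 (median 0.42) and 0 of 10 oligodendrocyte markers were (median -0.37), with 0 of either past an unadjusted p of 0.05 (limma). Astrocyte markers (0 of 10 above 0, median -0.17) and endothelial markers (1 of 9, median -0.17) had 2 and 3 lower at that threshold, and microglia markers (4 of 10, median -0.05) had 0. Of these lists only the oligodendrocyte score was fitted as a covariate here. The part of the other markers in the members' differences was not tested.

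LD* animals against controls gave no adjusted call either, with 0 of 46 members and 0% of all genes (limma). At an unadjusted p under 0.05, 0 members were higher (0.293% of all genes) and 1 was lower (2.54%). Differences were above 0 for 22 of 46 members against 41.9% of all genes, and the median was -0.01 against -0.03. The single gene was PSMB8, which ran over 4.20, 6.37 and 9.13 TPM in LD* animals (lowest, median, highest) against 6.12, 10.0 and 13.5 TPM in controls. Its log2 difference was -0.50 (SE 0.21, unadjusted p = 0.0269, adjusted p = 1.00, limma), and it was -0.83 within cohort 7a and -0.47 within cohort 7b. PSMB9 (-0.33, SE 0.23), PSME1 (-0.18, SE 0.20) and PSME2 (-0.20, SE 0.22) were also below 0, PSMB10 was at -0.02 (SE 0.20) and PSME4 at -0.28 (SE 0.16), and none of these passed at p under 0.05. The chaperones PSMG1, PSMG3 and PSMG4 were at 0.09, 0.08 and 0.13. PSMB5, PSMB6 and PSMB7 differed by -0.028, -0.00066 and 0.025. Without Control 6 there were 2 lower members, PSMB8 (-0.46) and PSME4 (-0.34), against 1.59% of all genes. After TMM rescaling there were 0, against 1.64%, with 34 of 46 differences above 0 (55.3% of all genes). Striatal projection neuron markers were again on the higher side in LD* animals, with 10 of 10 above 0 (median 0.37), and oligodendrocyte markers on the lower, with 0 of 10 above 0 (median -0.47). Microglia markers (0 of 10 above 0, median -0.20), astrocyte markers (0 of 10, median -0.14) and endothelial markers (1 of 9, median -0.16) were lower too, with 0, 1 and 2 past an unadjusted p of 0.05 and 0 of the striatal and oligodendrocyte markers (limma). Of these lists only the oligodendrocyte score was fitted as a covariate here. The part of the other markers in the members' differences was not tested.

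HD* against LD* animals, the comparison of heavy with lighter drinkers, had 0 of 46 members and 0% of all genes at an adjusted p under 0.05 (limma). At an unadjusted p under 0.05, 0 members were higher (0.33% of all genes) and 0 lower (0.748%). Differences were above 0 for 20 of 46 members against 26.7% of all genes, and for 33 of 46 after TMM rescaling against 47.7%. The immunoproteasome genes were all on the higher side, with 0.22 (SE 0.21) for PSMB8, 0.23 (SE 0.23) for PSMB9 and 0.22 (SE 0.20) for PSMB10, each about the size of its error. PSME1 and PSME2 were at 0.14 and 0.12. The smallest p belonged to PSMD9, a chaperone of cap assembly, at -0.19 (SE 0.10, unadjusted p = 0.069, limma). PSMC3, PSMG1, PSMC3IP and PSMD4 followed with 0.16, -0.11, -0.12 and 0.08. PSMB5, PSMB6 and PSMB7 lay at 0.06, 0.04 and 0.05. The 3 group comparisons share animals, so their values are not independent of each other.

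Within the HD* group, VHD animals were compared with HD animals. In a fit to the 8 HD* animals, 6 of 46 members passed an adjusted p of 0.05, a share near the 14.6% of all 13637 genes that did (limma). Among them PSMB8, PSMB10, PSME1 and PSME2 were higher in VHD than in HD animals, and the 19S cap subunits PSMD3 and PSMD11 were lower. At an unadjusted p under 0.05, 9 members were higher, against 8.08% of all genes, and 7 lower, against 24.6%. Differences were above 0 for 26 of 46 members, against 34.8% of all genes. The members' median was 0.01 and that of all genes -0.17. After TMM rescaling, which moved the median of all genes by 0.15, 7 members passed as higher (7.81% of all genes) and 3 as lower (11.6%). Rescaled in this way, 13 were higher (16.4%) and 5 lower (20.8%) at an unadjusted p under 0.05.

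PSME1 had the smallest p. It measured 68.0, 68.9, 52.0 and 69.9 TPM in the 4 HD animals and 97.9, 135, 115 and 110.0 TPM in the 4 VHD animals, each list with cohort 5 first. Every VHD animal was above every HD animal, and the log2 difference was 0.81 (SE 0.15, adjusted p = 0.00778, limma). PSME2 measured 27.0, 27.6, 22.4 and 27.1 TPM in HD and 39.4, 51.9, 42.5 and 72.9 TPM in VHD, again without overlap (0.93, SE 0.19, adjusted p = 0.0123, limma). PSME2 has processed copies in primate genomes, and the authors kept only uniquely mapped reads. Its counts are therefore uncertain where reads match several copies. Within cohorts, with 2 animals on each side, PSME1 differed by 0.74 in cohort 5 and 0.89 in cohort 7a, and PSME2 by 0.71 and 1.15. Both passed in all 8 fits that left out 1 animal.

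PSMB8 followed the same order. Its levels were 5.26, 6.68, 4.14 and 5.19 TPM in HD and 8.54, 10.5, 9.76 and 17.7 TPM in VHD (log2 difference 0.96, SE 0.24, adjusted p = 0.0235, limma). PSMB10 measured 92.0, 96.1, 124 and 143 TPM in HD and 153, 178, 186 and 215 TPM in VHD (0.69, SE 0.17, adjusted p = 0.0205, limma). PSMB9 measured 10.9, 8.87, 7.11 and 8.99 TPM against 11.5, 15.8, 13.1 and 27.4 TPM, and did not pass (0.79, SE 0.26, adjusted p = 0.0595, limma). None of the 3 genes overlapped between the categories, and HD* 8, a VHD animal of cohort 7a, was the highest for each. Differences within cohort 5 and cohort 7a were 0.60 and 1.33 for PSMB8, 0.42 and 1.15 for PSMB9, and 0.81 and 0.58 for PSMB10. When 1 animal was left out, PSMB8 passed in 4 of 8 fits and PSMB10 in 5 of 8.

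The standard counterparts moved less. PSMB5 measured 358, 338, 356 and 365 TPM in HD and 335, 327, 295 and 309 TPM in VHD, without overlap and with VHD lower (log2 difference -0.16, SE 0.11, unadjusted p = 0.166, limma), but the value was 0.01 after TMM rescaling. PSMB6 differed by 0.11 (SE 0.11), and PSMB7 by 0.35 (SE 0.12, adjusted p = 0.0734, limma). PSMB7 also did not overlap, with 327, 332, 353 and 368 TPM in HD against 419.5, 392, 495 and 454 TPM in VHD. The share of PSMB8 in the sum of PSMB8 and PSMB5 was 1.48% (± 0.33, SD, n = 4) in HD and 3.56% (± 1.28) in VHD, beside 2.98% (± 0.97, n = 8) in controls and 2.02% (± 0.46) in LD* animals. For PSMB9 with PSMB6 the shares were 2.50% in HD and 4.29% in VHD, and for PSMB10 with PSMB7 24.6% and 29.4%.

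The genes that passed as lower in VHD animals were cap subunits of the lid. PSMD3 measured 157, 174, 191 and 184 TPM in HD and 137, 139.5, 105 and 91.5 TPM in VHD (-0.59, SE 0.16, adjusted p = 0.0282, limma). PSMD11 measured 38.0, 44.1, 44.1 and 43.9 TPM in HD and 28.8, 35.1, 22.7 and 17.3 TPM in VHD (-0.73, SE 0.20, adjusted p = 0.033, limma). Neither gene overlapped between the categories. The cohorts differed in size here, with -0.26 and -0.93 for PSMD3 and -0.35 and -1.11 for PSMD11 in cohorts 5 and 7a. Leaving out 1 animal, PSMD3 passed in 4 of 8 fits and PSMD11 in 3 of 8.

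**Figure D2:**
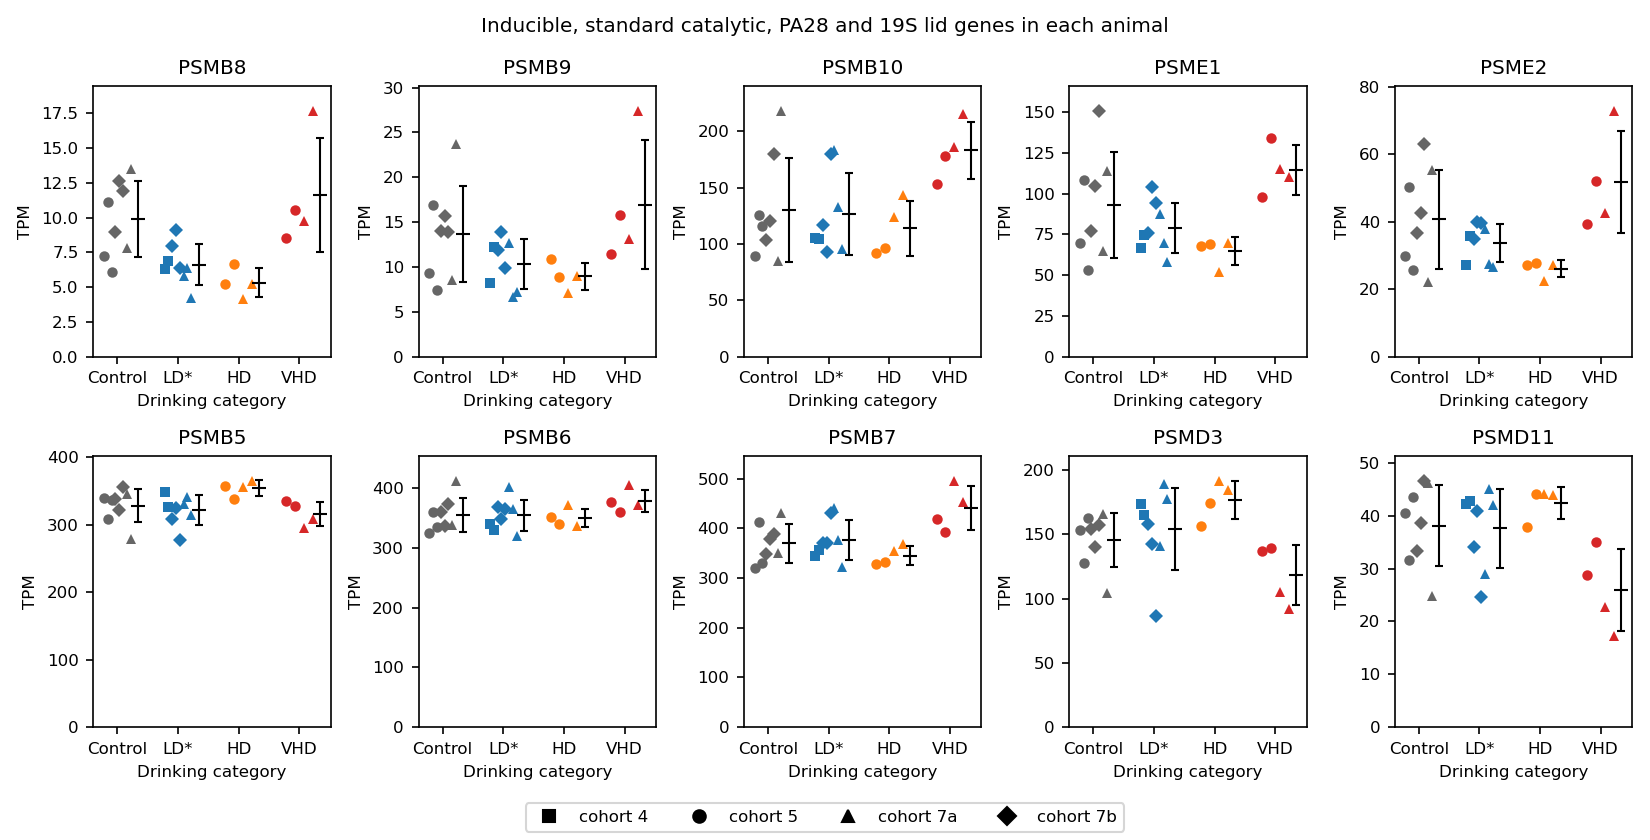
TPM of 10 genes in each animal by drinking category, with marker shape for the cohort and, to the right of each column, the mean ± SD. For PSMB8, PSMB9, PSMB10, PSME1 and PSME2 the 4 VHD animals all lie above the 4 HD animals, while the 8 controls overlap with both.

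By class, VHD animals were higher for 3 of 3 immunoproteasome genes, 5 of 7 alpha, 4 of 7 beta and 3 of 3 genes of 20S assembly. Of the assembly genes, PSMG1 and PSMG3 were at only 0.04 and 0.0063. VHD animals were also higher for 3 of 6 ATPases, 2 of 3 chaperones of 19S assembly and 2 of 5 activators or inhibitors. The share above 0 over all genes was 34.8%. Of the 11 non-ATPase cap genes, 8 were lower. Members with no overlap and VHD higher numbered 8, against 5.39% of all genes, and were PSMA5, PSMB4, PSMB7, PSMB8, PSMB9, PSMB10, PSME1 and PSME2. The structural genes among them were PSMB4, at 0.34 (SE 0.12), and PSMA5, at 0.39 (SE 0.15), and neither passed after adjustment. Members with no overlap and VHD lower numbered 3, against 17.9% of all genes, and were PSMB5, PSMD3 and PSMD11. The cap scaffold genes PSMD1 (-0.54, SE 0.18) and PSMD2 (-0.31, SE 0.14), the chaperone PSMD5 (-0.70, SE 0.31), PSME4 (-0.52, SE 0.22) and the inhibitor PSMF1 (-0.38, SE 0.16) were below an unadjusted p of 0.05 and not below an adjusted one. These and the non-overlapping structural genes were named after their values were seen.

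**Figure D3:**
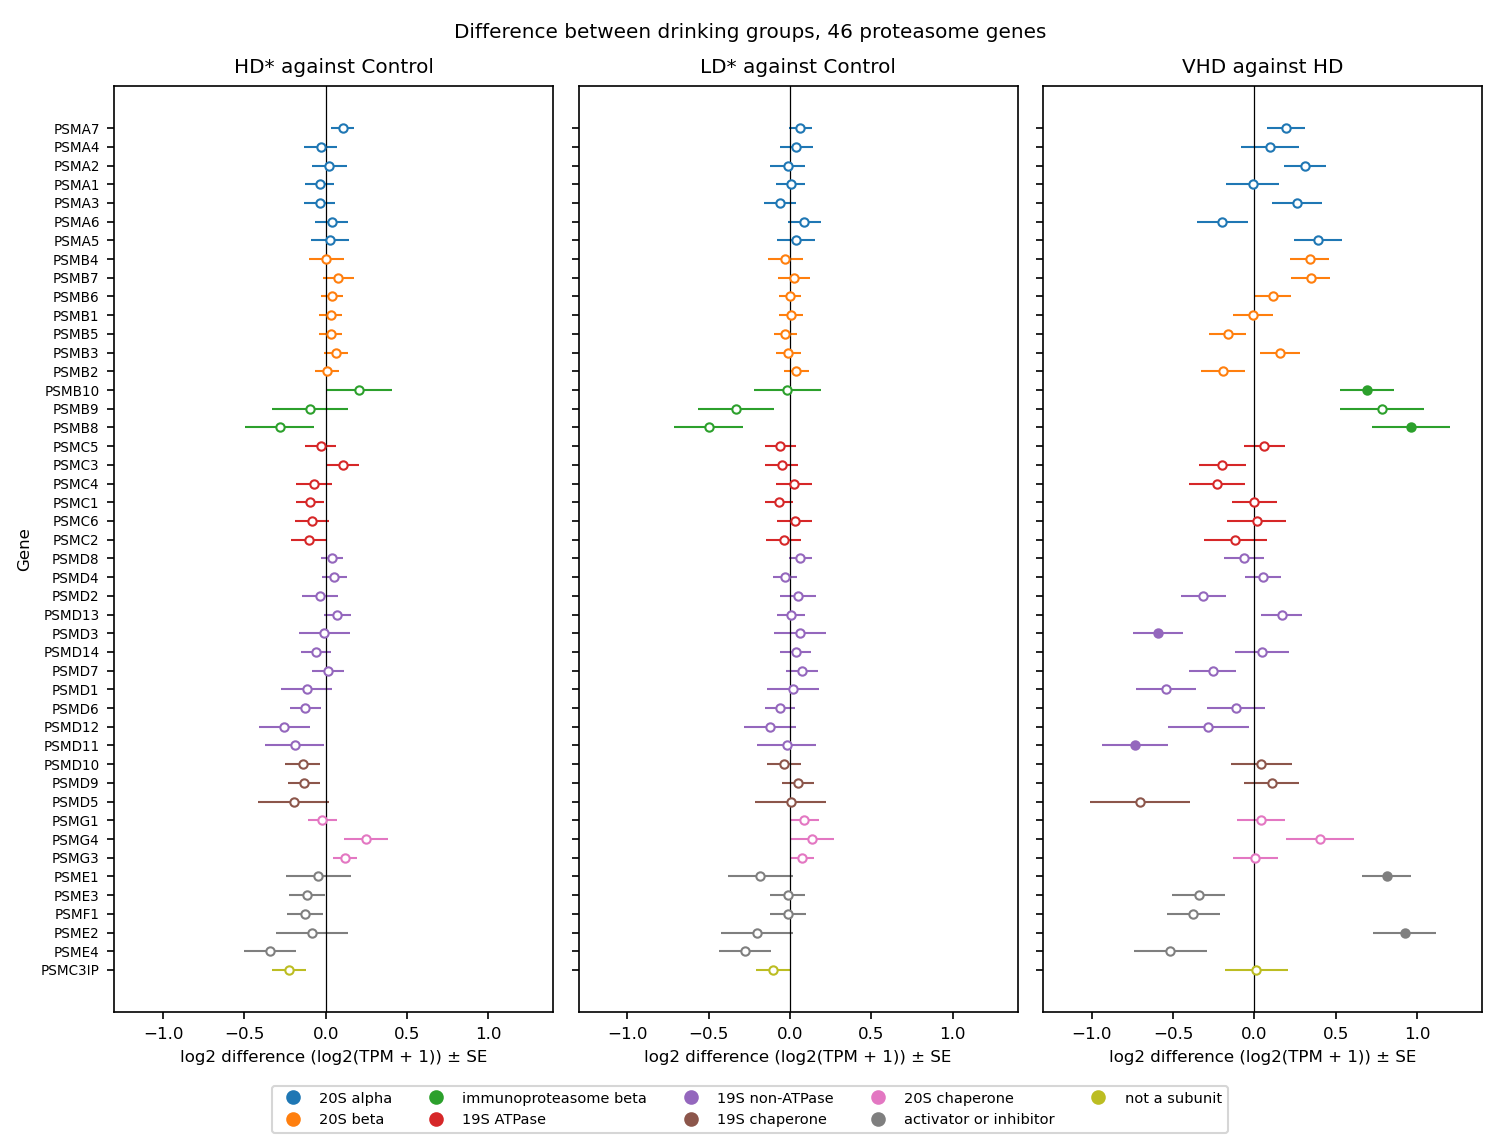
Log2 differences (points) with standard errors (bars) for the 46 genes in HD* against Control, LD* against Control and VHD against HD, coloured by class, with filled points where the adjusted p was under 0.05. Filled points appear only in the last panel, for PSMB8, PSMB10, PSME1 and PSME2 above 0 and PSMD3 and PSMD11 below 0.

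Averaged over each class as the mean of log2(TPM + 1) centred on each gene, the immunoproteasome score was -0.35 (± 0.11, SD, n = 4) in HD and 0.46 (± 0.38) in VHD animals, beside 0.11 (± 0.42, n = 8) in controls and -0.17 (± 0.23) in LD* animals. For PA28 it was -0.41 (± 0.17) in HD, 0.46 (± 0.24) in VHD, 0.09 (± 0.51) in controls and -0.11 (± 0.25) in LD*. Controls overlapped with both categories, with an immunoproteasome score from -0.35 to 0.81 against -0.49 to -0.23 in HD and 0.11 to 1.00 in VHD animals. The score of the 20S beta class stayed between -0.14 and 0.14 in all 24 animals. The non-ATPase cap score was 0.08 (± 0.03) in HD and -0.16 (± 0.28) in VHD. No test was made of class scores.

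Markers of cell types moved with the same contrast, in which 14.6% of all genes passed an adjusted p of 0.05 in either direction (limma). Of 10 striatal projection neuron markers, 9 were lower in VHD than in HD animals at an adjusted p under 0.05 (limma), and their summed level was 8675 to 10250 TPM in HD and 3209 to 5944 TPM in VHD. Of 10 microglia markers, 5 were higher, with sums of 384 to 493 TPM in HD and 499 to 865 TPM in VHD. Of 10 astrocyte markers, 2 were higher (3097 to 4964 TPM against 6276 to 9714 TPM), and of 10 general neuron markers, 3 were lower (7267 to 8242 TPM against 4186 to 7216 TPM). None of 9 endothelial markers passed, with sums of 229 to 268 TPM in HD and 195 to 225 TPM in VHD, and 1 of 10 oligodendrocyte markers was higher, with overlapping sums. No microglia marker averaged under 1 TPM over the 24 animals. The first principal component of all tested genes, with 35.8% of the variance, also separated HD animals (-25.5 to -16.6) from VHD animals (6.73 to 45.8), while controls ran from -36.0 to 51.7.

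Covariates for these markers, added after the data were seen, left no member past the adjusted threshold. Shares of all genes were not set beside the counts given here, so the loss cannot be read as particular to the members. With a striatal projection neuron marker score in the model, 0 of 46 members passed an adjusted p of 0.05, and PSME1 was at 0.20 (SE 0.36, adjusted p = 0.726) while PSMB8 was at 0.92 (SE 0.67, adjusted p = 0.434, limma). The errors were larger than without the score, which itself did not overlap between the categories. With a microglia marker score, 0 of 46 passed, with 0.61 (SE 0.22) for PSME1 and 0.92 (SE 0.38) for PSMB8 (adjusted p = 0.365 for both, limma). The other folds with the striatal score were 0.81 for PSME2, 0.43 for PSMB10, -0.82 for PSMD3 and -1.35 for PSMD11, and with the microglia score 0.95, 0.79, -0.53 and -0.80. When HD and VHD were fitted as categories beside the other 16 animals, which share their spread, 0 of 46 passed as well, and PSME1, PSME2, PSMB8 and PSMD11 each had an adjusted p of 0.0555 (limma).

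Over all 24 animals the PA28 genes were lower where the striatal projection neuron markers were higher. PSME1 fell as the striatal projection neuron score rose (Pearson r = -0.87, Spearman rho = -0.89, permutation p = 2e-05 for each, the smallest that 100000 permutations give, adjusted over 12 relations to 8e-05 and 0.00012). The relation was -0.90 without the 2 animals farthest from the median score. It was also present in controls alone (r = -0.92, n = 8), in LD* (-0.88) and in HD* animals (-0.96), and in cohorts 5 (-0.97), 7a (-0.93) and 7b (-0.98). PSME2 gave r = -0.78 and rho = -0.87 (permutation p = 2e-05 for each, adjusted 8e-05 and 0.00012), and -0.79 without the 2 farthest animals. Within cohorts 5, 7a and 7b it gave -0.97, -0.84 and -0.98.

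PSMB8 (r = -0.63, rho = -0.75, permutation p = 0.00118 and 8e-05) and PSMB10 (r = -0.57, rho = -0.59, permutation p = 0.00294 and 0.0028) were less tightly tied to that score, with adjusted p of 0.00236 and 0.00016 for PSMB8 and 0.00504 and 0.0042 for PSMB10. Without the 2 farthest animals r was -0.64 and -0.53, and within cohorts 5, 7a and 7b it was -0.91, -0.79 and -0.52 for PSMB8 and -0.86, -0.82 and -0.59 for PSMB10. PSMD3 gave r = 0.41 and rho = 0.62 (permutation p = 0.079 and 0.00154, adjusted 0.0862 and 0.00264), with r = 0.65 without the 2 farthest animals, of which Control 6 was the farthest. PSMD3 did not hold in cohort 7b (r = -0.09 against 0.77 and 0.89 in cohorts 5 and 7a). PSMD11 showed no clear relation over all animals (r = 0.21, rho = 0.36, permutation p = 0.326 and 0.0863, adjusted 0.326 and 0.0942). Without the 2 farthest animals r was 0.51. Its sign turned in cohort 7b (-0.60 against 0.70 and 0.82 in cohorts 5 and 7a).

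With the microglia score the relations had the opposite sign. PSME1 gave r = 0.76 and rho = 0.75 (permutation p = 2e-05 and 6e-05, adjusted 8e-05 and 0.00016), and 0.77 without the 2 farthest animals. PSMB8 gave r = 0.71 and rho = 0.74 (permutation p = 8e-05 and 4e-05, adjusted 0.00024 and 0.00016), 0.70 without the 2 farthest, and 0.90 in the 8 controls. Within cohorts 5, 7a and 7b r was 0.86, 0.83 and 0.61 for PSME1 and 0.70, 0.74 and 0.80 for PSMB8. PSME2 (0.65), PSMB10 (0.49), PSMD3 (-0.53) and PSMD11 (-0.38) had adjusted permutation p of 0.00182, 0.0237, 0.0168 and 0.0845. These 12 relations were chosen after the comparison of HD and VHD animals had been seen, and the animals share 1 table, so the part of tissue makeup in the difference between HD and VHD was not tested beyond the covariate fits above.

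**Figure D4:**
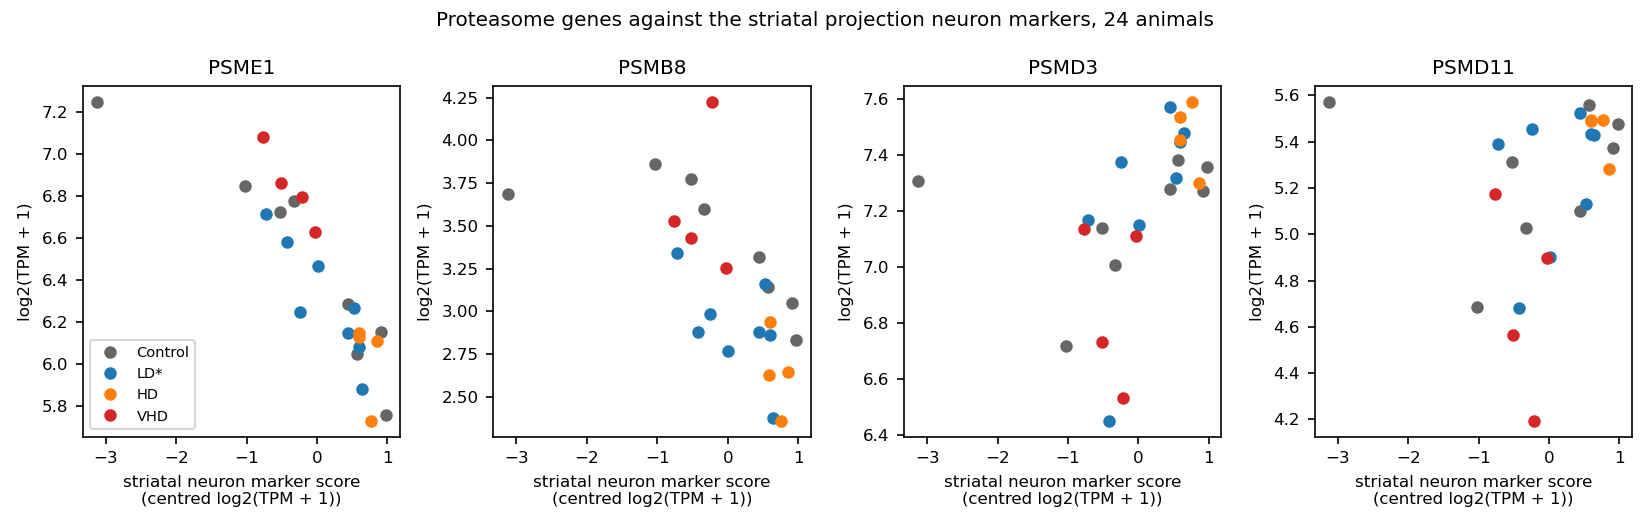
Log2(TPM + 1) of 4 genes against the mean centred log2 level of 10 striatal projection neuron markers, 1 point per animal, coloured by drinking category. PSME1 falls along a common trend through all categories (r = -0.87), with HD animals at its lower right and VHD animals further up, and the point at the far left is Control 6.

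The relations between member genes followed their roles in part. PSME1 and PSME2, which form 1 ring and are neighbours on chromosome 7 with EMC9 between them in the RefSeq annotation of T2T-MMU8v2.0, gave r = 0.91 and rho = 0.97 over 24 animals (permutation p = 2e-05, the smallest possible, adjusted over 6 pairs to 4e-05). PSMB8 and PSMB9, which lie on chromosome 4 on either side of TAP1, gave r = 0.87 and rho = 0.83 (permutation p = 2e-05, adjusted 4e-05). Without the 2 animals farthest from the median, r was 0.90 and 0.80. Within cohorts 5, 7a and 7b it was 0.96, 0.90 and 0.95 for the PA28 genes and 0.82, 0.90 and 0.90 for PSMB8 with PSMB9.

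PSMB10 rose with its own standard counterpart PSMB7 (r = 0.86, rho = 0.88, permutation p = 2e-05, adjusted 4e-05). The relation was 0.84 without the 2 farthest animals and 0.83, 0.87 and 0.81 within cohorts 5, 7a and 7b. PSMB8 and PSMB5 went the other way (r = -0.42, rho = -0.49, permutation p = 0.0422 and 0.0157, adjusted 0.0507 and 0.0235), with -0.48 without the 2 farthest, and this did not hold in every cohort, since r was -0.89, -0.68 and 0.78 in cohorts 5, 7a and 7b. PSMB9 and PSMB6 gave r = 0.48 and rho = 0.39 (permutation p = 0.0198 and 0.0602, adjusted 0.0297 and 0.0723), which fell to 0.29 without the 2 farthest animals and was 0.66, 0.59 and -0.56 in the cohorts. The pair of core and cap genes PSMC1 and PSMA1 showed no clear relation (r = 0.20, rho = 0.20, permutation p = 0.356 and 0.348, adjusted 0.356 and 0.348, with 0.29 without the 2 farthest). Thus the 3 inducible genes did not relate to their standard counterparts in the same way.

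Genes that work with the proteasome were examined as lists. Of 18 tested genes of antigen processing and interferon response, 3 were higher and 4 lower in VHD than in HD animals at an adjusted p under 0.05 (limma). The higher ones were B2M, the light chain of class I molecules (0.99, SE 0.19), GBP1, an interferon-induced GTPase (0.93, SE 0.23), and IRF8, a transcription factor of microglia and other myeloid cells (0.73, SE 0.21). The lower ones were the peptide-loading genes TAPBP (-1.14, SE 0.16), TAP2 (-0.76, SE 0.22), CALR (-0.65, SE 0.16) and PDIA3 (-0.61, SE 0.16). TAP1, which lies between PSMB8 and PSMB9, differed by 0.25 (SE 0.18, adjusted p = 0.358) and NLRC5, an activator of class I genes, by 0.53 (SE 0.20, adjusted p = 0.0918, limma). The list's median was 0.39, against -0.17 for all genes, and 14.6% of all genes passed the adjusted threshold in either direction.

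Over all genes in VHD against HD, 14.6% passed an adjusted p of 0.05 in either direction (limma), and the median was -0.17. Of 29 tested partners of the ubiquitin-proteasome system, 1 was higher and 13 lower in VHD than in HD animals (limma, adjusted p under 0.05), and the median was -0.47. The lower ones included UBQLN2, a shuttle that carries ubiquitinated proteins to the proteasome (-1.19, SE 0.19), the ubiquitin-activating enzyme UBA1 (-0.78, SE 0.15), the transcription factor NFE2L1, which drives proteasome genes (-0.69, SE 0.16), and the segregase VCP (-0.55, SE 0.15). The higher one was RPS27A (0.92, SE 0.17), a fusion of ubiquitin with a ribosomal protein, whose many processed copies make its level uncertain. POMP, the maturation factor of the 20S core, differed by -0.09 (SE 0.18). At an unadjusted p under 0.05, 2 partners were higher in VHD animals (8.08% of all genes) and 18 lower (24.6%, limma). In HD* against Control, LD* against Control, HD* against LD* and the slope on intake, no gene of the 8 lists passed an adjusted p of 0.05 (limma). Since 0% of all genes passed in these fits, no list could hold one. At an unadjusted p under 0.05, 0 of 29 partners differed in HD* against controls and 1 of 18 antigen-processing genes was lower.

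Daily intake was also fitted as a number. Over the 16 drinkers, 0 of 46 members and 0% of all genes had a slope on daily intake at an adjusted p under 0.05 (limma). At an unadjusted p under 0.05, 0 members had a slope above 0 (1.49% of all genes) and 0 below (5.16%). Slopes were above 0 for 21 of 46 members against 27.5% of all genes, and for 36 of 46 after TMM rescaling against 47.5%. PSMB10 was the nearest to a relation, at 0.21 log2 units per g/kg (SE 0.10, unadjusted p = 0.0523, limma). PSME1 (0.15, SE 0.10), PSMB8 (0.16, SE 0.12), PSMB9 (0.14, SE 0.12) and PSME2 (0.13, SE 0.11) had slopes of about their errors. On the lower side were PSMD5 (-0.21, SE 0.13), PSMD11 (-0.17, SE 0.10), PSMD1 (-0.14, SE 0.09) and PSMF1 (-0.10, SE 0.07). PSMB5, PSMB6 and PSMB7 had slopes of 0.01, 0.04 and 0.07. With cohort in the model, 2 members had a slope above 0 (2.53% of all genes) and 8 below (26.9%) at an unadjusted p under 0.05, and 0 at an adjusted one.

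Cohort was tested with drinking group in the model. Between the 4 cohorts 0 of 46 members and 0% of all genes differed at an adjusted p under 0.05 (limma), and 2 of 46 did at an unadjusted p, against 8.36% of all genes. They were PSMA1, an alpha subunit (unadjusted p = 0.00354), and PSMC3IP (unadjusted p = 0.0418). The difference of HD* from controls could be compared between cohorts 5 and 7a only, and the interaction gave 0 of 46 members and 0% of all genes at an adjusted p under 0.05 (limma). It was above 0 for 14 of 46 members, against 41.2% of all genes. For PSME1 it was -0.32 (SE 0.52) and for PSMB8 -0.27 (SE 0.60), errors that are more than 2 times those of the pooled differences.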

How the data were processed

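The authors prepared polyA-selected libraries, for which the sources differ on strand and read pairing, aligned reads to the MacaM genome with STAR 2.5.2b, counted genes with HTSeq 0.6.1p1 and, per the labels, used DESeq2. The deposited table, which the authors named normalized counts, was read as TPM per symbol since each column sums to the total TPM has. The gene lengths behind it are not given in the sources used here, and depth per animal is unknown. Whether strand was used in counting is not given in the sources used here.

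Members and lists were chosen with earlier results of these data known. Log2(TPM + 1) was fitted for the 13637 genes that averaged 1 TPM or more with limma 3.58.1 (R 4.3.3, empirical Bayes with a trend), with p adjusted by Benjamini-Hochberg over all of them. Fold changes are on the log2(TPM + 1) scale, which understates those of low genes. The 3-group fit used 24 animals, the VHD and HD fit 8, the slope 16. The code was tested on simulated data. Correlations used 100000 two-sided permutations (scipy 1.17.1). Named were PSMB5 to PSMB10, PSME1 and PSME2 in each comparison and the 6 members with the smallest p; others are marked. Alternatives were pseudocounts of 0.1 and 8, a minimum of 10 TPM, no filter, TMM rescaling (trimming 30% of M and 5% of A), covariates (cohort, first principal component, oligodendrocyte score), other sample sets and leaving out each animal; the striatal and microglia covariates were added after the data were seen. All 48 members matched RefSeq symbols; neighbours were read from their order there, and no sequence or coordinate is printed.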

Additional observations from a re-analysis of the deposited data

Results flagged for a closer look

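Of 160 sets of values (named genes and class scores in Control, LD*, HD*, HD and VHD animals), 14 held a lowest or highest animal farther from the others than Dixon's limit for its group size allows, where chance gives about 1 in 20.

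HD* 8, the VHD animal of cohort 7a that was highest for the immunoproteasome genes, was set apart in the HD* group with 17.7 TPM for PSMB8 (the other 7 had 4.14 to 10.5 TPM), with 27.4 TPM for PSMB9 (7.11 to 15.8 TPM) and with a 19S chaperone score of -0.79 (-0.22 to 0.28). HD* 5 was low among the 4 HD animals, with 52.0 TPM for PSME1 (68.0 to 69.9 TPM), 22.4 TPM for PSME2 (27.0 to 27.6 TPM) and a PA28 score of -0.67 (-0.34 to -0.32). HD* 2 was low in the same category with 38.0 TPM for PSMD11 (43.9 to 44.1 TPM) and a non-ATPase cap score of 0.035 (0.089 to 0.10). Without HD* 8 the number of members past an adjusted p of 0.05 between VHD and HD was 7, and without HD* 5 or HD* 2 it was 3 each (limma). Shares of all genes were not set beside these counts.

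LD* 5 was low for PSMD3 with 86.5 TPM (the other 7 LD* animals had 141 to 189 TPM) and for the non-ATPase cap score with -0.31 (-0.06 to 0.16). LD* 6 was high for PSMA7 with 299.7 TPM (244 to 268 TPM), and LD* 4 for PSMD4 with 291 TPM (249.9 to 266 TPM). Control 6, whose striatal markers were the lowest, had 363 TPM of PSMD4 (the other 7 controls had 240.4 to 279 TPM). HD* 4 was high for PSMC3IP with 19.4 TPM (11.4 to 14.0 TPM).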

How the results depend on the processing

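In HD* against Control, LD* against Control, HD* against LD* and the slope on intake, 0 members passed an adjusted p of 0.05 under any alternative run (limma). The count between VHD and HD animals, 6, was 3 without a filter, 10 with TMM rescaling, 2 with the first principal component, 0 with 4 categories over 24 animals, 0 with the striatal and 0 with the microglia score. It was 8 with cohort and 6 with either pseudocount or the oligodendrocyte score. With at least 10 TPM it was also 6, but not of the same genes, since PSMB8, with a mean of 8.34 TPM, was not tested there. Leaving out 1 animal, the count ran from 2 (without HD* 6) to 17 (without HD* 4), with 3 each without HD* 2, 3, 5 or 7 and 7 without HD* 1 or 8. Shares of all genes were set beside the main count and that with TMM rescaling only, so the other changes cannot be read as particular to the members. Except as said in the report, the cause was not tested. PSME1 passed in 8 of 11 other alternatives and PSMB8 in 5 of 10.

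Signs turned for differences that had not passed. In HD* against Control, PSMB9, PSME1 and PSME2 were at 0.029, 0.090 and 0.049 with TMM and 0.026, 0.11 and 0.057 with cohort, PSME1 was at 0.047 with the oligodendrocyte score, and PSME1 and PSME2 were at 0.12 and 0.072 in cohorts 5 and 7a alone. In LD* against Control, TMM gave 0.020 for PSMB5, 0.048 for PSMB6 and 0.033 for PSMB10, the first principal component 0.021 for PSMB6 and 0.099 for PSMB10, and the oligodendrocyte score 0.016 for PSMB10. PSME2 was at -0.015 in HD* against LD* with the first principal component, and PSMB5 at 0.015 between VHD and HD with TMM. For the slope, PSMB5 was at -0.031 with cohort and -0.086 with drinking group, and the first principal component gave -0.0096 for PSMB7, -0.019 for PSMB9, -0.039 for PSME2, 0.020 for PSMD11, 0.013 for PSMD5, 0.026 for PSMD1 and 0.0063 for PSMF1.

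Leaving out 1 animal, differences of HD* from Control ran from -0.0014 to 0.058 for PSMB5, -0.26 to 0.021 for PSMB9, -0.15 to 0.066 for PSME1 and -0.23 to 0.016 for PSME2. Those of LD* from Control ran from -0.061 to 0.0018 for PSMB5, -0.027 to 0.030 for PSMB6, -0.0086 to 0.057 for PSMB7 and -0.099 to 0.10 for PSMB10. PSME2 in HD* against LD* ran from -0.023 to 0.21. The table gives no depth, so no interval for counting error is given. No paired analysis applied, since the animals were unrelated and each gave a single sample in a single group.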
